A study of Mus musculus with 26 samples.

Results

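The 10 genes described here encode small leucine-rich proteoglycans: Aspn (asporin), Dcn (decorin), Bgn (biglycan), Lum (lumican), Fmod (fibromodulin), Prelp, Kera (keratocan), Omd (osteomodulin), Ogn (osteoglycin) and Epyc (epiphycan). They were found by symbol, and all 10 were present among the 41442 gene rows of each of the 2 RNA-seq tables. The family was taken up because Aspn was among the genes that rose most between E14.5 and E16.5 in males, so the male age values of all members are given as a description, without a test. The comparisons between sexes share the male libraries with that contrast, whereas the female age comparison and the uterine comparison do not use them. The study sorted Tomato-labelled mesenchymal cells from the fetal mouse reproductive tract. Gli1+ cells came from embryos carrying Gli1-CreER and Rosa-Tomato, and Amhr2+ cells from embryos carrying Amhr2-Cre and Rosa-Tomato. The treatment label covers both crosses: dams received 1 mg of tamoxifen by intraperitoneal injection at E12.5 and again at E13.5. Gli1+ cells of the mesonephros, the tissue around the fetal genital ducts, were profiled in females and males at E14.5 and at E16.5 (4 groups), and Gli1+ and Amhr2+ cells of the female uterus at E19.5 (2 groups). Each of these 6 groups had 3 RNA-seq libraries. The Gli1-driven label marks cells, and descendants of cells, that expressed Gli1, a target gene of hedgehog signalling, around the time of tamoxifen. The Amhr2-driven label marks cells, and descendants of cells, that expressed the receptor of anti-Müllerian hormone. The labels do not say whether replicates came from separate animals or from pools, so the p-values measure only the spread between these libraries, which may be technical.

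Small leucine-rich proteoglycans are secreted proteins whose core is a curved stack of leucine-rich repeats, in most members carrying glycosaminoglycan chains. They bind collagen fibrils and regulate fibril assembly, width and spacing, and several also bind growth factors of the TGF-beta family or their receptors. They are grouped by sequence: decorin, biglycan and asporin form class I, lumican, fibromodulin, PRELP, keratocan and osteomodulin form class II, and osteoglycin and epiphycan belong to class III. In reproductive tissues decorin and lumican are known as proteoglycans of the stroma.

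The family lies mainly in gene clusters, with all coordinates here on mm10, 1-based. On chromosome 13, Aspn (49544443 to 49567565), Omd (49582462 to 49592822) and Ogn (49608046 to 49624501) follow each other on the plus strand with gaps of 14896 and 15223 bp. All 3 lie inside the span of Cenpp, a centromere protein gene transcribed from the opposite strand. On chromosome 10, Dcn (97479609 to 97518143), Lum (97565128 to 97572703), Kera (97606879 to 97613692) and Epyc (97644068 to 97682454) are all on the plus strand, and the end of Epyc overlaps RP23-346B18.2 on the opposite strand. On chromosome 1, Prelp (133910304 to 133921414, minus strand) lies 115839 bp from Fmod (134037254 to 134048277, plus strand), and Prelp overlaps AC157924.3 on the opposite strand. Bgn is on chromosome X (73483602 to 73495933, plus strand). The fetal kit did not mark strand and the use of strand in counting is not given in the sources used here, so the counts of Aspn, Omd, Ogn, Prelp and Epyc may hold reads of the overlapping gene.

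Start-site sequences are shown for 1 pair of genes whose start region met a peak of accessible chromatin in the deposited ATAC-seq list (Aspn and Ogn) and for 1 pair whose start region met none (Kera and Epyc). All 4 were called between the sexes at 1 age or more, as were Dcn, Lum and Omd. Each is the RefSeq promoter window of GRCm38.p6, from 250 bases before to 50 bases after a start, plus strand, at chr13:49544193-49544492 for Aspn, chr13:49607765-49608064 for Ogn, chr10:97606955-97607254 for Kera and chr10:97643818-97644117 for Epyc. Capitals mark matches, on either strand, to the TATA-box word TATAAA, the CCAAT-box word CCAAT, the GC-box core GGGCGG, the AP-1 motif TGANTCA, the Gli core CCACCCA, the steroid receptor word AGAACA or the Runx core TGTGGT. The matches of TATAAA on both strands overlap each other in Ogn.
Aspn: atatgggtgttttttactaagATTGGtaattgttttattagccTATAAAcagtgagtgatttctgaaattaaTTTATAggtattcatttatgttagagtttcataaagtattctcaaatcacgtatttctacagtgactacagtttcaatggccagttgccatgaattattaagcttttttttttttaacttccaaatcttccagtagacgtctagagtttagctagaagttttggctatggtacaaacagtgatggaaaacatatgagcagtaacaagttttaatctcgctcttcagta
Ogn: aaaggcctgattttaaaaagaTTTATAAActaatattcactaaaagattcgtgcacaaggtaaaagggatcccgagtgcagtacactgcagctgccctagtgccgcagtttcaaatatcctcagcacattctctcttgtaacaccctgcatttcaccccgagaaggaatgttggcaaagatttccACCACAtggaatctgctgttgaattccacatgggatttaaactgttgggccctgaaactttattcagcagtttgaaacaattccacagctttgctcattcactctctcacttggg
Kera: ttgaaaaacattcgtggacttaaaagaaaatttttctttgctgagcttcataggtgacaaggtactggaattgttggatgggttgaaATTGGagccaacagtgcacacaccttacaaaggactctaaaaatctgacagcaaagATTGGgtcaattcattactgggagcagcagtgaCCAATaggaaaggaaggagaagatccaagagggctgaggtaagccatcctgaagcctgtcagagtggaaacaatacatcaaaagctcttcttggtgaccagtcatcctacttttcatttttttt
Epyc: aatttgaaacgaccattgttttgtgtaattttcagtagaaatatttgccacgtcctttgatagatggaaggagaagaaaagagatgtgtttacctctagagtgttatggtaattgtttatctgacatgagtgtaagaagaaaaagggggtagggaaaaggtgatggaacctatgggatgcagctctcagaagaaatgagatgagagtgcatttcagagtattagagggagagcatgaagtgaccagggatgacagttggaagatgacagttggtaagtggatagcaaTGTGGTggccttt
The GC content of these windows was 31.0% in Aspn, 42.3% in Ogn, 41.0% in Kera and 40.3% in Epyc, against a median of 52.7% over 32851 mouse promoter windows. Aspn held TATAAA at -207 bases from the start and its reverse complement at -178, and the reverse complement of CCAAT at -229. Ogn held TATAAA at -227 and its reverse complement at -229, and the reverse complement of TGTGGT at -65. Kera held CCAAT at -74 and its reverse complement at -163 and -107, and Epyc held TGTGGT at 37 bases after the start. These positions are counted from the start used by the RefSeq window. For Aspn and Epyc it is the gene start of the deposited table, and for Ogn it lies at -31 bp from that start. For Kera it lies 326 bp inside the gene as the deposited table spans it, so the whole Kera window lies within that span and its positions are not upstream of the gene start given above. Over all promoter windows 13.6% held TATAAA, 37.4% CCAAT, 35.7% GGGCGG, 7.81% TGANTCA, 9.30% CCACCCA, 19.0% AGAACA and 16.8% TGTGGT. A match is a description of letters in this window and does not show a binding site. The promoter table matched 8 of the 10 members, Dcn and Lum not among them.

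The fetal libraries held between 23382983 and 64602477 counts and the uterine libraries between 28709191 and 37541045. The 10 genes together took 0.281% ± 0.0076 (SD, n = 3) of counts in E14.5 females, 0.311% ± 0.021 in E14.5 males, 0.450% ± 0.028 in E16.5 females, 0.466% ± 0.054 in E16.5 males, and 0.216% ± 0.021 in uterine Amhr2+ and 0.426% ± 0.043 in uterine Gli1+ cells. A floor of 3 counts lay between 0.0485 and 0.126 counts per 1000000 (CPM) for the mesonephros and between 0.0778 and 0.102 CPM for the uterus, which covers counting error only. All 10 genes passed the low-count filter among 17858 fetal genes tested, and 9 among 16195 uterine genes tested, Epyc being left out. The sorted cells carried mesenchymal markers in every group: 8 genes including Vim, Pdgfra and Col1a1 summed to 26882 to 65319 CPM per library. As a check of the sex labels, Xist lay between 3162 and 4172 CPM in the fetal libraries labelled female and at 16.2 CPM or less in those labelled male. Gli1 and Amhr2 themselves were detected in all 6 groups. Uterine Amhr2+ cells held 11.1 ± 4.31 CPM of Amhr2 and 10.5 ± 2.63 CPM of Gli1, against 4.10 ± 1.00 and 17.9 ± 2.85 CPM in uterine Gli1+ cells. The fetal Gli1+ groups differed in Gli1 as well, at 50.7 ± 2.88 CPM in E16.5 females against 208 ± 13.3 CPM in E16.5 males.

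Per unit of exon length, lumican, decorin and biglycan were the 3 highest members in all 6 groups, and the remaining 7 genes lay below them, with Ogn close under Bgn in E16.5 males. In E14.5 females the levels per kb of exon were 282 CPM for Lum, 235 for Dcn, 107 for Bgn, 11.3 for Ogn, 5.63 for Fmod, 3.44 for Kera, 1.47 for Aspn, 1.24 for Epyc, 1.14 for Prelp and 0.0998 for Omd. Epyc and Prelp were the only neighbours in that order whose libraries overlapped. In E14.5 males the order of mean levels was the same, with Lum and Dcn overlapping (284 and 278 CPM per kb) and Fmod and Kera overlapping.
In E16.5 males the order changed. Dcn (415 CPM per kb) and Lum (405) overlapped, followed by Bgn (142), Ogn (100.1), Aspn (45.2), Fmod (11.1), Kera (9.20, overlapping Fmod), Epyc (5.34), Prelp (1.28) and Omd (0.371). In E16.5 females Lum led (596 CPM per kb), then Dcn (364), Bgn (135), Ogn (34.5), Kera (13.1), Fmod (9.05), Aspn (6.05), Prelp (1.58), Epyc (0.727) and Omd (0.110), with no overlap between neighbours. Aspn thus stood in the seventh place in 3 of the fetal groups and in the fifth place in E16.5 males. The exon length used affects these ranks, and the shares and ratios below. With the longest transcript in place of all exons, Dcn stood above Lum in both sexes at E14.5, and Bgn above Dcn in uterine Gli1+ cells. In E16.5 males Ogn was then not close under Bgn, at 100.1 against 326 CPM per kb.

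**Figure D1:**
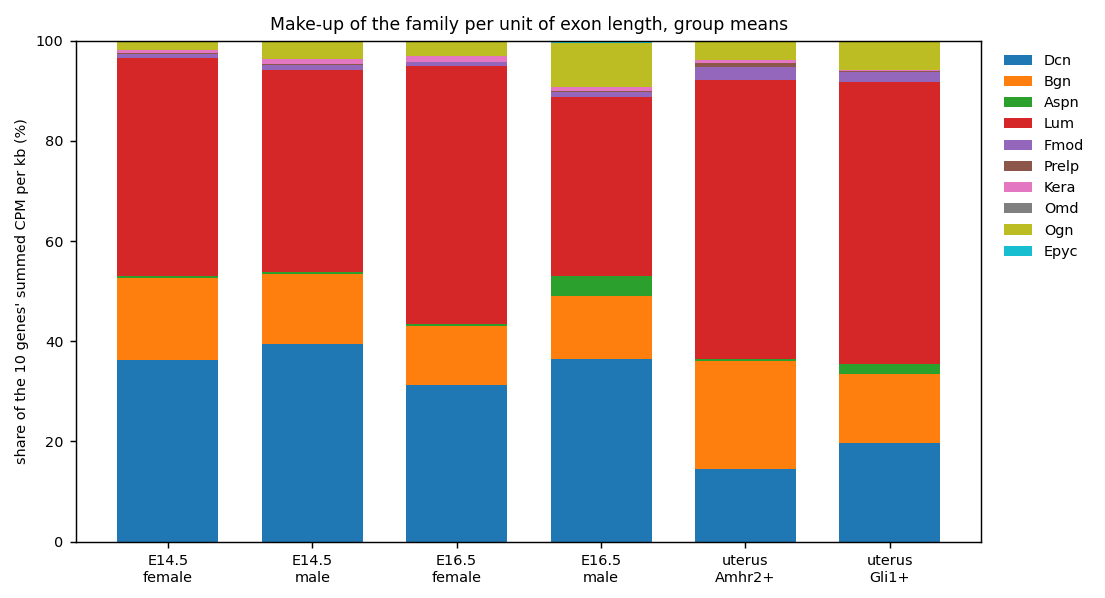
Stacked bars give, for each of the 6 groups, the share (%) that each member has of the 10 genes' summed CPM per kb of exon, from group means of 3 libraries. Lum takes 51.4% in E16.5 females against 35.7% in E16.5 males, and Ogn and Aspn take 8.81% and 3.98% in E16.5 males, their highest shares among the fetal groups. The uterine groups come from another kit and are not to be compared with the fetal groups.

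The make-up of the family differed between the sexes at E16.5. The ratio of Lum to Dcn per length was 1.203 ± 0.058 (SD, n = 3) in E14.5 females, 1.02 ± 0.14 in E14.5 males, 1.64 ± 0.016 in E16.5 females against 0.972 ± 0.13 in E16.5 males. Aspn made up 0.226% of the family's summed level per kb in E14.5 females, 0.433% in E14.5 males, 0.521% in E16.5 females and as much as 3.98% in E16.5 males. Ogn made up 1.74%, 3.41%, 2.97% and 8.81% in the same order. In the uterus Lum made up 55.7% in Amhr2+ and 56.3% in Gli1+ cells. Bgn (21.5%) exceeded Dcn (14.547%) in the Amhr2+ cells, and Dcn (19.7%) exceeded Bgn (13.8%) in the Gli1+ cells. That contrast rests on the length used: per kb of the longest transcript Bgn exceeded Dcn in both populations, at 275 against 101 CPM per kb in Amhr2+ and 381 against 294 in Gli1+ cells.

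**Figure D2:**
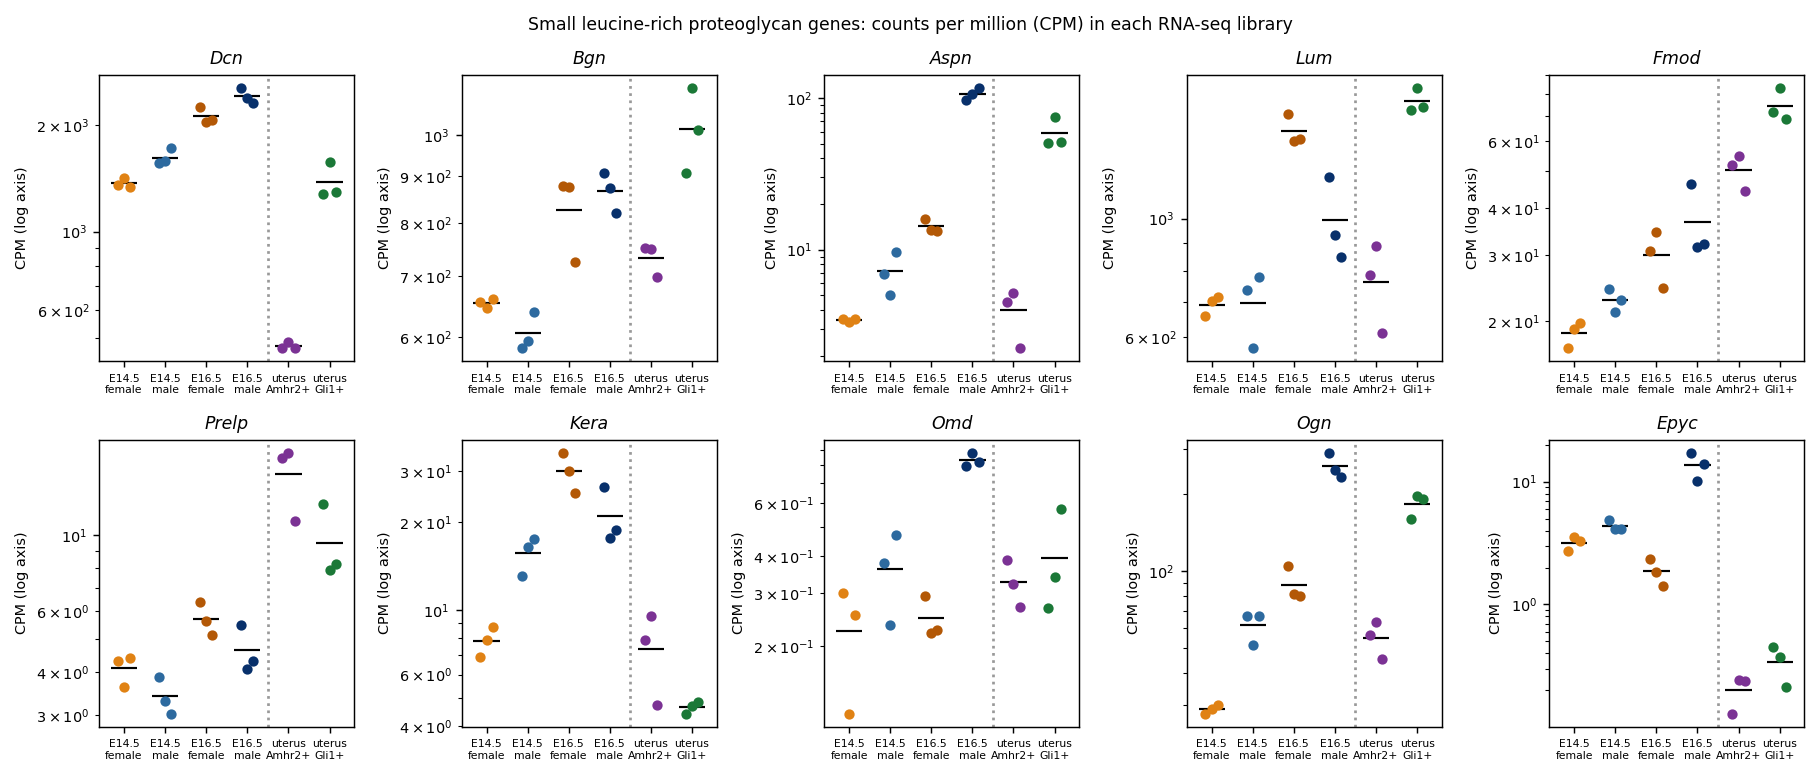
Points give CPM on a log axis in each library, and lines the mean of 3 libraries, for each of the 10 genes in the 4 fetal groups and, right of the dotted line, the 2 uterine groups, which come from another kit and are not to be compared with the fetal levels. Aspn rises above all other fetal libraries in E16.5 males (96.4 to 117 CPM), and Epyc is lowest among fetal groups in E16.5 females (1.41 to 2.33 CPM).

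The question of the fetal comparisons was how labelled mesenchyme differed between the sexes and with age. Between the sexes at E14.5, 4 of 10 members were called lower in females (Aspn, Dcn, Ogn and Kera) and none higher, at an adjusted p under 0.05 of edgeR's quasi-likelihood test. Over all genes tested 6.28% were called, 2.59% higher and 3.69% lower in females. That background itself moved with single libraries, from 1121 calls to 553 without E14.5 male replicate 3, 578, 660 and 653 without E14.5 female replicate 1, 2 and 3, and 686 without E14.5 male replicate 2. Between 3 and 4 members were called over all left-out libraries. The median log2 fold change of the members was -0.37, against -0.01 over all genes. At E16.5, 7 of 10 members were called: Aspn, Dcn, Ogn, Omd and Epyc were lower in females, and Lum and Kera were higher. Nothing is read from the Aspn call at E16.5, because the male libraries whose rise drew Aspn in enter that test. Over all genes 27.3% were called, 13.2% higher and 14.1% lower, and the median log2 fold change was -0.24 for the members and 0.01 for all genes. Leaving Aspn aside, the E14.5 and E16.5 calls shared Dcn and Ogn in the same direction, and Kera in opposite directions.
In females, 9 of 10 members were called with age, 8 higher at E16.5 and Epyc lower, against 39.6% of all genes (21.0% higher, 18.6% lower). Scaled by library size alone, the female split of all calls moved from 3746 higher and 3322 lower to 3130 higher and 3924 lower. The members' median log2 fold change was 0.66, against 0.00 over all genes. In males all 10 members had every E16.5 library above every E14.5 library, where 18.3% of all genes did. The male contrast called 23.3% of all genes, 13.1% higher and 10.2% lower, and nothing is read from the members' count because this contrast drew in the family. Scaled by library size alone, the male split of all calls moved from 2340 higher and 1828 lower to 1847 higher and 2641 lower, while the members' median log2 fold change went from 0.63 to 0.58.

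**Figure D3:**
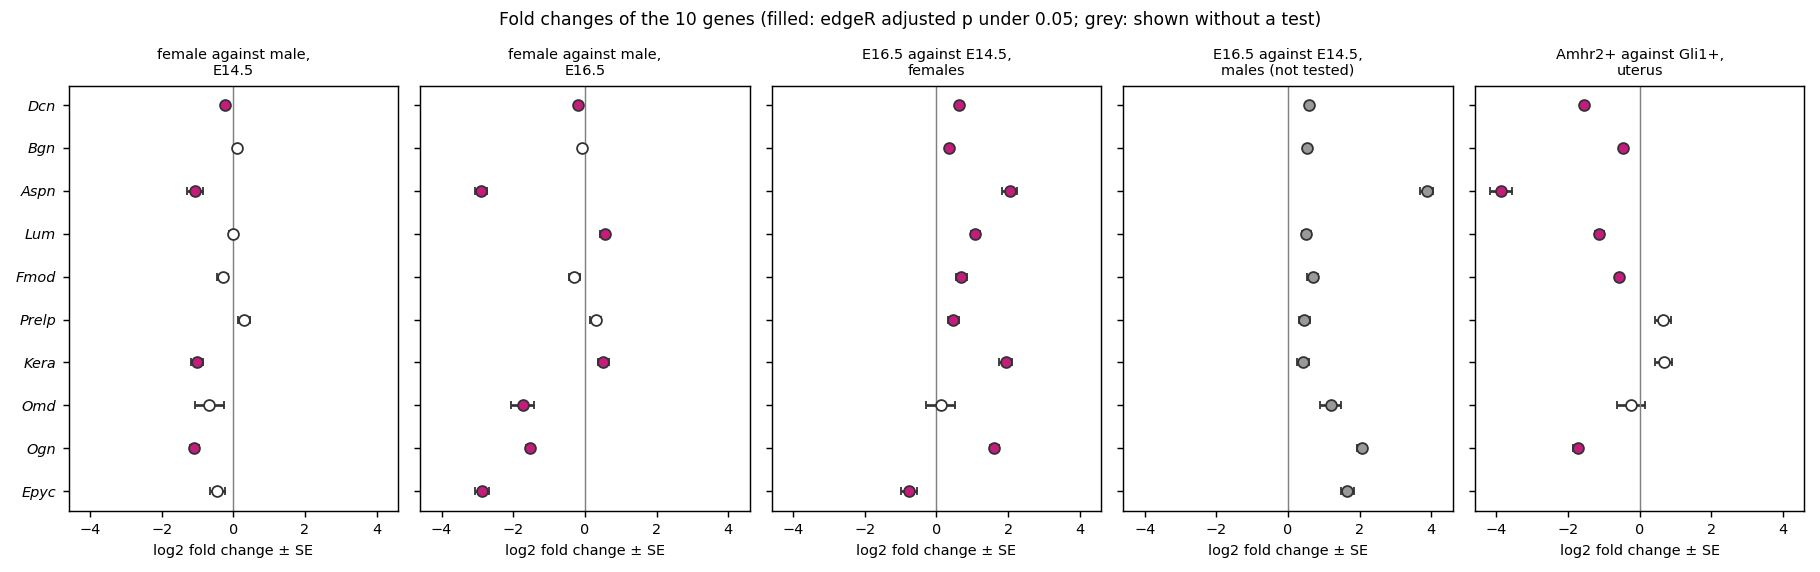
Points give the log2 fold change of each gene, with its standard error, in 5 contrasts, with 3 libraries per group, and filled pink points passed an adjusted p of 0.05 in edgeR. Grey points of the male age contrast carry no test, and Epyc has no point in the uterus. Aspn (-2.90) and Epyc (-2.87) lie far below 0 for females against males at E16.5, where Lum (0.56) and Kera (0.51) lie above it. The Aspn point at E16.5 rests on the male libraries that drew Aspn in and is read as a description.

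Asporin, a class I member that lacks the glycosaminoglycan chains of decorin and biglycan, was lowest in E14.5 females and highest in E16.5 males. Its levels were 3.51, 3.34 and 3.51 CPM in E14.5 females, 6.90, 5.02 and 9.63 in E14.5 males, 16.02, 13.5 and 13.2 in E16.5 females and 96.4, 106 and 117 in E16.5 males. No library of a group overlapped another group. Aspn was 2.1-fold lower in females at E14.5 (log2 fold change -1.07 ± 0.21 SE, adjusted p = 0.00894) and 7.48-fold lower at E16.5 (-2.90 ± 0.17). The E16.5 male libraries are those whose high values drew Aspn in, so the E16.5 difference is given as a description, without a p. The E14.5 test shares the E14.5 male libraries with that male age contrast. It rose 4.12-fold with age in females (2.04 ± 0.20, adjusted p = 7.02e-06). In males the fold was 14.7 (3.87 ± 0.18), described without a test. The log2 sex difference was 1.83 ± 0.27 SE more negative at E16.5 than at E14.5, also without a test, and over left-out libraries it ranged from -2.14, without E14.5 male replicate 3, the highest library of its group, to -1.62.

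Decorin, which binds collagen fibrils and TGF-beta, was abundant in all groups. Its levels were 1357, 1415 and 1340 CPM in E14.5 females, 1561, 1581 and 1720 in E14.5 males, 2260, 2040 and 2075 in E16.5 females and 2560, 2388 and 2322 in E16.5 males. Female and male libraries did not overlap at either age, and all E16.5 libraries exceeded all E14.5 libraries. Dcn rose 1.55-fold with age in females (0.63 ± 0.07, adjusted p = 3.11e-06), and the male fold was 1.495. The sex differences were small: log2 fold changes of -0.24 ± 0.07 at E14.5 (adjusted p = 0.0443) and -0.19 ± 0.07 at E16.5 (adjusted p = 0.0478).
Both Dcn sex calls sat at the threshold. With the replicate number as a block the E16.5 call held (adjusted p = 0.0245 in edgeR). The E14.5 call was lost with RLE scaling (adjusted p 0.0534), without E14.5 female replicate 1, 2 or 3 (0.153, 0.0924 and 0.170), without E14.5 male replicate 2 or 3 (0.0720 and 0.215), without E16.5 female replicate 1 or 2 (0.0557 and 0.0616) and without E16.5 male replicate 2 (0.0501). Over its 18 alternatives the adjusted p ranged from 0.00652 to 0.215. The E16.5 call was lost with library size as the only scaling (0.0618), in a fit of the 6 E16.5 libraries alone (0.0806), without E14.5 female replicate 1, 2 or 3 (0.0675, 0.0668 and 0.0675), without E16.5 female replicate 2 or 3 (0.141 and 0.119) and without E16.5 male replicate 1 or 2 (0.132 and 0.0740), with a range of 0.0133 to 0.141. Biglycan, the closest relative of decorin, did not pass the test between sexes at either age (0.11 ± 0.08, adjusted p = 0.487 at E14.5, and -0.07 ± 0.08, adjusted p = 0.540 at E16.5). Its levels were 655, 645 and 660 CPM in E14.5 females, 583, 594 and 639 in E14.5 males, 878, 876 and 724 in E16.5 females and 908, 875 and 821 in E16.5 males. The sexes did not overlap at E14.5 and overlapped at E16.5. Bgn rose 1.26-fold with age in females (0.34 ± 0.08, adjusted p = 0.00257), and the male fold was 1.43.

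Among class II members, lumican and keratocan carry keratan sulfate and are best known from the cornea. Lum was at 659, 701 and 713 CPM in E14.5 females, 734, 573 and 778 in E14.5 males, 1568, 1400 and 1411 in E16.5 females and 1197, 932 and 847 in E16.5 males. The sexes overlapped at E14.5, and at E16.5 every female library was above every male library. Lum rose 2.11-fold with age in females (1.08 ± 0.13, adjusted p = 1.30e-05), and the male fold was 1.43 (0.51 ± 0.12). It was 1.47-fold higher in females at E16.5 (0.56 ± 0.12, adjusted p = 0.00392) and not different past the threshold at E14.5 (-0.01 ± 0.12, adjusted p = 0.980).
Kera was at 6.88, 7.88 and 8.76 CPM in E14.5 females and 13.1, 16.4 and 17.4 in E14.5 males, so the sexes did not overlap and males were higher. At E16.5 it was at 34.6, 29.9 and 25.2 CPM in females and 26.5, 17.7 and 18.7 in males, where females were higher on average and the ranges overlapped. Same-numbered E16.5 libraries were taken as pairs, and Kera was higher in the female library of all 3 pairs. So was Prelp, which was not called. In Lum, Aspn, Dcn, Ogn, Omd and Epyc the sexes did not overlap at E16.5, so any pairing gives 1 direction. Nothing is read from their pairs. The share of all genes with 1 direction in all pairs was not counted. Kera was 2.01-fold lower in females at E14.5 (-1.01 ± 0.17, adjusted p = 0.00322) and 1.43-fold higher at E16.5 (0.51 ± 0.16, adjusted p = 0.0275). The E16.5 call was lost without the low-count filter (adjusted p 0.0795), in the fit of the 6 E16.5 libraries (0.0707), without E16.5 female replicate 1 or 2 (0.124 and 0.0773) and without E16.5 male replicate 2 or 3 (0.109 and 0.117), and it was firmer with the replicate block (adjusted p = 0.000248), the lower end of a range that reached 0.124 over 18 alternatives. With age Kera rose 3.82-fold in females (1.93 ± 0.17, adjusted p = 1.23e-06), and the male fold was 1.33 (0.41 ± 0.16).

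Fibromodulin, which binds collagen fibrils and takes part in their cross-linking, and PRELP, which binds both collagen and heparan sulfate, were modest in level. Fmod was at 17.0, 19.1 and 19.7 CPM in E14.5 females, 24.4, 21.1 and 22.8 in E14.5 males, 30.7, 34.5 and 24.6 in E16.5 females and 46.3, 31.6 and 32.04 in E16.5 males. Males were higher without overlap at E14.5 and overlapped females at E16.5, and neither sex difference passed the test (-0.29 ± 0.15, adjusted p = 0.342, and -0.29 ± 0.15, adjusted p = 0.166). Fmod rose 1.61-fold with age in females (0.69 ± 0.15, adjusted p = 0.00302), and the male fold was 1.61 as well. Prelp averaged 4.10 ± 0.42, 3.40 ± 0.43, 5.70 ± 0.62 and 4.62 ± 0.74 CPM (SD, n = 3) in E14.5 females, E14.5 males, E16.5 females and E16.5 males. Its libraries overlapped between the sexes at both ages. The female age change of Prelp passed the test (0.47 ± 0.16, adjusted p = 0.0247) and missed it when E14.5 female replicate 1 or 2 was left out (0.0512 and 0.105), or E16.5 female replicate 1 or 2 (0.101 and 0.0522), with a range of 0.0130 to 0.105. Its sex difference at E16.5 (0.30 ± 0.15, adjusted p = 0.1498) passed without E16.5 male replicate 1 (0.44, adjusted p = 0.0386), with a range of 0.0386 to 0.435 over 18 alternatives.
Osteomodulin, a class II member known from bone, was near the floor. Its levels were 0.301, 0.119 and 0.253 CPM in E14.5 females, 0.379, 0.235 and 0.469 in E14.5 males, 0.294, 0.222 and 0.227 in E16.5 females and 0.799, 0.881 and 0.824 in E16.5 males. The E16.5 males stood above all other fetal libraries. Omd was 3.33-fold lower in females at E16.5 (-1.74 ± 0.32, adjusted p = 0.000769), and its differences at E14.5 (-0.67 ± 0.39, adjusted p = 0.401) and with age in females (0.11 ± 0.41, adjusted p = 0.859) did not pass. Omd lies within Cenpp, which was at 3.87 to 6.47 CPM in E16.5 females against 9.23 to 10.8 in E16.5 males. Cenpp was itself lower in females at E16.5 (-0.88 ± 0.17, adjusted p = 0.00122). The part of Cenpp reads in the Omd value was not tested.

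Of the class III members, osteoglycin, also called mimecan, is a fibril-associated proteoglycan of connective tissue. Ogn was at 27.9, 29.1 and 29.9 CPM in E14.5 females, 66.8, 51.3 and 66.7 in E14.5 males, 105, 81.3 and 79.7 in E16.5 females and 289, 248 and 234 in E16.5 males. No group overlapped another. Ogn was 2.13-fold lower in females at E14.5 (-1.09 ± 0.12, adjusted p = 0.000114) and 2.90-fold lower at E16.5 (-1.54 ± 0.12, adjusted p = 3.89e-07). It rose 3.06-fold with age in females (1.61 ± 0.13, adjusted p = 2.93e-07), and the male fold was 4.17 (2.06 ± 0.12). Per length, Ogn exceeded Aspn 7.70 ± 0.36-fold in E14.5 females, 8.20 ± 1.62-fold in E14.5 males, 5.68 ± 0.27-fold in E16.5 females and 2.241 ± 0.47-fold in E16.5 males (SD, n = 3).
Epiphycan is known from the cartilage of the growth plate. It was at 2.71, 3.54 and 3.29 CPM in E14.5 females, 4.88, 4.15 and 4.09 in E14.5 males, 2.33, 1.85 and 1.41 in E16.5 females and 17.1, 10.1 and 13.8 in E16.5 males. Females were below males without overlap at both ages, with the wider gap at E16.5. Epyc was 7.33-fold lower in females at E16.5 (-2.87 ± 0.21, adjusted p = 5.32e-08) and did not pass the test at E14.5 (-0.45 ± 0.21, adjusted p = 0.254). It was the only member that fell with age in females (-0.77 ± 0.22, adjusted p = 0.0128), a call lost without E14.5 female replicate 2 (0.0524) or E16.5 female replicate 3 (0.0558), with a range of 0.00289 to 0.0558. In males its fold with age was 3.15 (1.66 ± 0.19). The ratio of Kera to Epyc per length was 18.3 ± 1.68 (SD, n = 3) in E16.5 females against 1.74 ± 0.22 in E16.5 males.

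Whether the sex difference changed between ages was tested as an interaction. This interaction is also the female age change minus the male age change, and the male age contrast drew in the family through Aspn. Of 9 members tested, with Aspn left out, 2 passed, against 10% of all genes (4.66% positive, 5.36% negative). The sex difference of Kera turned from lower to higher in females, a change of 1.52 ± 0.24 (SE) on the log2 scale (adjusted p = 0.000773). That of Epyc became more negative by 2.42 ± 0.29, an interaction of -2.42 (adjusted p = 5.99e-05). The log2 age changes behind them were 1.93 in females and 0.41 in males for Kera, and -0.77 and 1.66 for Epyc. Lum (0.57 ± 0.18, adjusted p = 0.0571) and Ogn (-0.45 ± 0.17, adjusted p = 0.126) did not pass. With the replicate number as a block within each age, 4 members passed: Kera, Epyc, Lum (0.57, adjusted p = 0.00872) and Ogn (-0.46, adjusted p = 0.00901). That block also joins same-numbered E14.5 libraries, whose deviations correlated at 0.0725, 0.0504 and 0.0508, under the limit of 0.1, so those numbers did not count as pairs. Lum also passed in DESeq2 (adjusted p = 0.0185), without E14.5 male replicate 2 (0.0119) and without E16.5 male replicate 1 (0.00286), and Ogn without E16.5 female replicate 1 (0.0245). Over 17 alternatives the adjusted p ranged from 0.00286 to 0.199 for Lum and from 0.00901 to 0.248 for Ogn. Dcn (0.05), Bgn (-0.18), Fmod (0.00), Prelp (0.01) and Omd (-1.07) did not pass, with adjusted p from 0.233 to 0.999.

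In the E19.5 uterus the comparison was between Amhr2+ and Gli1+ cells. Of 9 members tested, 6 were lower in Amhr2+ cells (Aspn, Dcn, Lum, Ogn, Bgn and Fmod) and none passed as higher. Over all genes 23.9% were called, 10.1% higher and 13.7% lower in Amhr2+ cells. The median log2 fold change was -0.56 for the members and -0.00 for all genes. The split of all calls depended on scaling: 1642 were higher and 2224 lower with TMM, and 2849 higher and 1640 lower with library size alone. The 6 members remained lower and called under both.
Aspn was at 4.54, 5.18 and 2.237 CPM in Amhr2+ and 50.2, 74.4 and 51.05 in Gli1+ cells, 14.48-fold lower in Amhr2+ cells (-3.86 ± 0.31, adjusted p = 0.000343). Dcn was at 467, 488 and 468 CPM against 1276, 1576 and 1293 (-1.54 ± 0.09, adjusted p = 2.19e-05), and Lum at 784, 889 and 610 against 1598, 1758 and 1619 (-1.12 ± 0.13, adjusted p = 0.000701). Ogn was at 56.1, 63.5 and 45.4 CPM against 159, 196 and 191 (-1.73 ± 0.13, adjusted p = 0.000127). In these 4 genes no library of one population reached the range of the other. Bgn was at 752, 748 and 697 CPM against 908, 1127 and 1013 (-0.47 ± 0.08, adjusted p = 0.00536), and Fmod at 52.0, 55.0 and 44.4 against 71.9, 83.3 and 68.7 (-0.56 ± 0.10, adjusted p = 0.00536), also without overlap. Over all genes 23.2% had every Amhr2+ library below every Gli1+ library.
Prelp and Kera had the opposite sign and did not pass. Prelp was at 16.8, 17.3 and 10.98 CPM in Amhr2+ and 12.3, 7.92 and 8.23 in Gli1+ cells (0.66 ± 0.22, adjusted p = 0.0668), and Kera at 7.86, 9.49 and 4.71 against 4.41, 4.67 and 4.82 (0.67 ± 0.24, adjusted p = 0.0721). In both genes Amhr2+ replicate 3, the lowest of its group, reached into the Gli1+ range. Without it both passed (Prelp 0.84, adjusted p = 0.0213, and Kera 0.90, adjusted p = 0.00521), and Prelp also passed without Gli1+ replicate 1 (0.90, adjusted p = 0.0321). Both passed as well with library size alone (0.0420 and 0.0432) and in DESeq2 (0.0130 and 0.0275), Kera without the low-count filter (0.0391) and Prelp with the replicate block (0.0149). Over 11 alternatives the adjusted p ranged from 0.0130 to 0.186 for Prelp and from 0.00521 to 0.210 for Kera. Omd was at 0.328 ± 0.059 against 0.394 ± 0.16 CPM (SD, n = 3), with overlap (-0.25 ± 0.39, adjusted p = 0.679). Epyc had 5, 9 and 7 counts in Amhr2+ libraries and 15, 12 and 7 in Gli1+ libraries and was not tested.

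Markers of other cell types moved with some of these results. In sorted bulk samples, fewer cells of a type and less RNA per cell cannot be told apart. A list of 7 smooth muscle genes (Acta2, Myh11, Cnn1, Tagln, Actg2, Des and Myocd) summed to 312 to 336 CPM in E14.5 females, 634 to 928 in E14.5 males, 486 to 588 in E16.5 females against 1770 to 2969 in E16.5 males. Of these 7 genes, 4 were lower in females at E14.5, as were Aspn, Dcn, Ogn and Kera. At E16.5, 6 were lower, as were Dcn, Ogn, Omd, Epyc and, as a description, Aspn, while Lum and Kera were higher. In the uterus the list summed to 1181 to 1831 CPM in Amhr2+ and 2170 to 2401 in Gli1+ cells, with 2 of 7 lower in Amhr2+ cells.
A list of 8 chondrocyte genes, read beside Epyc, summed to 61.7 to 68.8 CPM in E16.5 females against 107 to 129 in E16.5 males. Of 7 tested genes, 3 were lower in females (Col9a1, Hapln1 and Cnmd) and 2 higher (Col2a1 and Col11a2). Cnmd was the highest gene of the list in E16.5 males, at a mean of 44.8 CPM. Matn1, another gene of that list, had 0 counts in all 12 fetal libraries. In the uterus the list summed to 11.9 to 14.48 CPM in Amhr2+ and 38.3 to 46.0 in Gli1+ cells, with 4 of 7 lower. Of 7 immune genes 4 were higher in females at E16.5, at sums of 28.8 to 73.4 CPM in females and 12.9 to 46.8 in males. Of 6 mesothelial genes 3 were lower in females at E16.5, at sums of 29.4 to 70.8 CPM in females and 72.8 to 99.0 in males. Of 8 mesenchymal genes 4 were higher and 2 lower in females at E16.5. They summed to 56030 to 65319 CPM in females and 46135 to 57571 in males. Of 8 epithelial genes 4 were higher in uterine Amhr2+ cells, at 72.0 to 74.2 CPM against 32.02 to 43.8. Of 8 mesenchymal genes 4 were lower there, at sums of 26882 to 28736 CPM against 55091 to 61978. All 3 erythroid genes tested were lower in uterine Amhr2+ cells as well, with the list of 6 summing to 1.75 to 2.54 CPM against 7.84 to 8.67 (median log2 fold change -1.92). Of 6 endothelial genes tested 2 were lower there, at sums of 30.5 to 35.8 CPM against 41.8 to 51.6.
With age in females, 4 of 7 smooth muscle genes were called higher and Tagln lower. Of 7 immune genes 4 were called higher (median log2 fold change of the list 1.30), while the list, led by Cd68, summed to 58.3 to 68.0 CPM in E14.5 and 28.8 to 73.4 in E16.5 females. Of 6 endothelial genes tested 3 were lower at E16.5, at sums of 114 to 125 CPM in E14.5 and 66.8 to 79.8 in E16.5 females. Of 8 epithelial genes 2, Krt8 and Krt18, were lower at E16.5. Of 8 mesenchymal genes 4 were higher at E16.5 (Vim, Col1a1, Col1a2 and Col3a1) and 3 lower (Pdgfra, Pdgfrb and Nr2f2). They summed to 40030 to 42140 CPM in E14.5 and 56030 to 65319 in E16.5 females. The part of these differences in the members' results was not tested.

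Other genes of the family, Ecm2, Podn, Podnl1, Chad, Nyx, Optc, Tsku and Nepn, were read in the same way. The counts of this list, of the marker lists above and of the lists below stand against the shares called over all genes. Those were 6.28% between the sexes at E14.5, 27.3% at E16.5, 39.6% with age in females and 23.9% in the uterus. At E14.5 none of 7 tested differed between the sexes. At E16.5 Ecm2 (-0.81, adjusted p = 0.00532), Podn (-0.98, adjusted p = 0.00221), Optc and Tsku were lower in females and Chad, a cartilage member, was higher. Ecm2, Optc and Tsku rose with age in females, none passed the interaction, and Tsku alone of 4 tested was lower in uterine Amhr2+ cells. Tsku, a secreted member known to bind BMPs, was at 52.7 ± 3.47 CPM in E16.5 females against 67.0 ± 2.78 in E16.5 males (SD, n = 3).
Collagens and their fibril-associated partners, to which these proteoglycans bind, mostly rose with age in females. Of 12 genes, 10 rose and Col12a1 fell. Col5a3 went from 21.2 ± 0.86 to 81.8 ± 4.85 CPM (log2 fold change 1.95, adjusted p = 1.14e-10) and Col14a1 from 462 ± 9.85 to 1088 ± 59.0 (1.24, adjusted p = 1.98e-07). At E16.5, 6 were higher in females, among them Col1a1 (0.42, adjusted p = 0.00678), and 3 were lower, among them Col12a1 (-0.98, adjusted p = 9.85e-07). In the uterus 11 of 12 were lower in Amhr2+ cells. Col14a1, a fibril-associated collagen, was at 52.1 ± 0.88 CPM in Amhr2+ and 707 ± 74.5 in Gli1+ cells (-3.76, adjusted p = 2.45e-07).

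Genes that process collagen and its partners or cross-link it gave 8 of 13 higher and 1 lower with age in females. Lox, the lysyl oxidase of collagen and elastin, went from 86.4 ± 7.21 to 287 ± 18.0 CPM (1.73, adjusted p = 2.41e-09), and Tll1, a protease of the BMP1 family, from 3.40 ± 0.53 to 16.8 ± 1.85 (2.30, adjusted p = 8.32e-09). Between the sexes, 2 were lower in females at E14.5, and 5 were higher and 4 lower at E16.5, where Lox was lower in females (-0.63, adjusted p = 8.09e-05). In the uterus 9 of 13 were lower in Amhr2+ cells, among them Pcolce, an enhancer of procollagen cleavage (-1.19, adjusted p = 3.06e-05).
Genes for chondroitin and dermatan sulfate chains, as carried by decorin and biglycan, gave 9 of 21 higher and 3 lower with age in females. The polymerising enzyme Chsy3 was lower in females at E14.5 (-0.44, adjusted p = 0.00672) and higher at E16.5 (0.53, adjusted p = 0.000173), with an interaction of 0.98 (adjusted p = 8.04e-05). In the uterus 11 of 21 were lower in Amhr2+ cells and Chst15 was higher (0.89, adjusted p = 0.00233). Of 7 keratan sulfate genes tested, none rose and B3gnt7 fell with age in females (-0.40, adjusted p = 0.0492), while 2 were higher and 3 lower in females at E16.5. Of 18 growth factor and receptor genes known to bind these proteoglycans, 2 were higher and 8 lower in females at E16.5. Bmp4 was at 11.7 ± 1.92 CPM in E16.5 females against 65.0 ± 10.5 in E16.5 males (-2.47, adjusted p = 4.93e-08).

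A list of genes from the wider neighbourhood of the clusters, whose distances were not measured, did not all move with the members. Of 11 tested, none was higher and 5 were lower in females at E16.5, among them Cenpp and Atp2b1 (-0.58, adjusted p = 0.000211). Ecm2 and Optc, already counted with the family genes above, were also among these. Over all genes 13.2% were higher and 14.1% lower there. In the uterus Cenpp was at 9.17 ± 0.39 CPM in Amhr2+ and 8.31 ± 0.54 in Gli1+ cells and did not pass the test (0.14 ± 0.11, adjusted p = 0.393). With age in females Cenpp did not pass (-0.10 ± 0.18, adjusted p = 0.688). At E16.5 Cenpp was at 10.1 ± 0.79 CPM in males. The uterine libraries came from a stranded kit and the fetal libraries did not. The part of Cenpp reads in the Aspn and Ogn values was not tested.

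Likeness of level was measured as Pearson's r of log2 CPM over the 12 fetal libraries, among 10449 genes with a mean of at least 10 CPM in their highest group. The libraries share 4 groups and 1 scaling, so r is given as a description without a p. The genes most like Aspn were Tenm1 (r = 0.990), Chrdl1 (0.989) and Vwa5a (0.988), and Ogn had an r of 0.980 with Aspn. Chrdl1, a secreted BMP antagonist, was at 0.347, 0.898, 1.62 and 18.3 CPM in E14.5 females, E14.5 males, E16.5 females and E16.5 males. The genes most like Dcn were Plp2 (0.986), Lox (0.986) and Cybrd1 (0.985). Those most like Lum were Angptl2 (0.986), Ech1 (0.981) and Cnot8 (0.973), and those most like Bgn were Mfap2 (0.968), Paqr4 (0.966) and Mst1r (0.965). The r of Aspn with Lum was 0.456 and with Prelp 0.332.

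Accessible chromatin was available as 1 list of 71040 ATAC-seq peaks for all fetal samples, with no sample or height column, so peaks could not be compared between sexes or ages. Of the 10 members, 7 had a peak within 1 kb of an annotated start (Aspn, Dcn, Lum, Ogn, Omd, Fmod and Prelp), against 89.1% of 14577 tested genes with a symbol in GENCODE. The widest of these was that of Lum, at 928 bp against a median of 233 bp over the list, followed by Omd (577 bp) and Dcn (536 bp). The peaks of Aspn, Dcn, Lum and Fmod met an annotated start itself, whereas that of Omd, centred at -622 bp from its start, did not reach it. The peak of Aspn (49544234 to 49544567 on chromosome 13) covered the start and overlapped the promoter window printed above, and that of Ogn (49607621 to 49608001) ended before the start. Bgn, Kera and Epyc had no peak within 1 kb. Bgn, among the 3 highest members in all groups, had 1 peak, centred 10168 bp into the gene. Kera had no peak in its span, and Epyc had 3 peaks, centred 6682, 24692 and 26346 bp from its start. A peak list without heights does not show whether a start without a peak was closed.

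**Figure D4:**
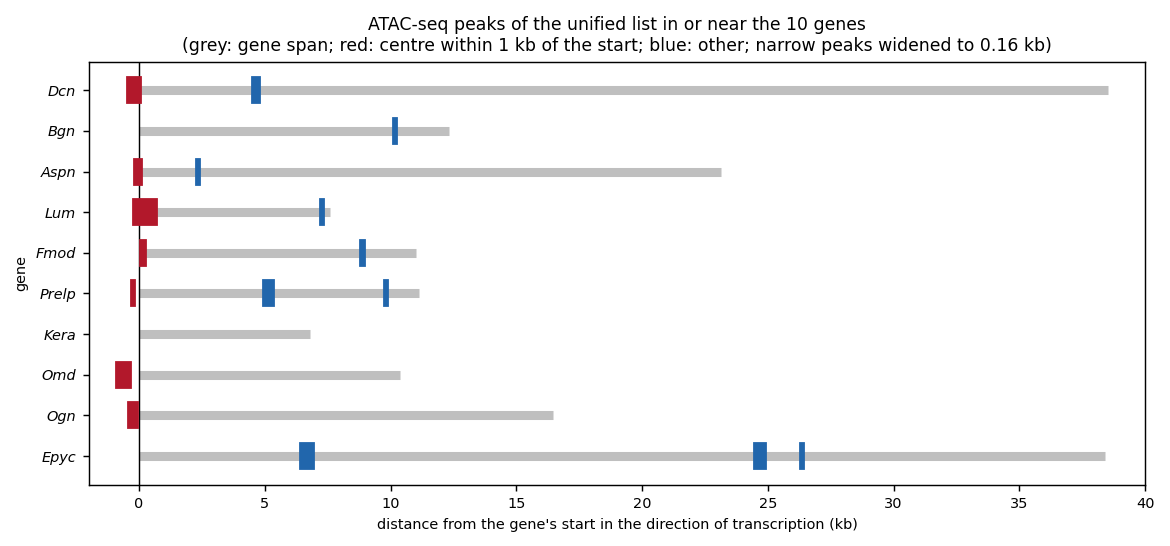
Each row is a gene drawn from its start along the direction of transcription (kb, grey), with ATAC-seq peaks of the unified list as boxes, red where the centre lies within 1 kb of that start and blue elsewhere, and narrow peaks widened to be visible. Aspn, Dcn, Lum, Ogn, Omd, Fmod and Prelp carry a red box, whereas Bgn and Epyc carry blue boxes only and Kera none.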

How the data were processed

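The authors deposited raw read counts per gene for 12 fetal and 6 uterine RNA-seq libraries and 1 list of ATAC-seq peak positions from 8 samples. Per the submitters' processing notes, STAR 2.5, featureCounts, Subread 1.5.0-p1, Bowtie 1.2 and MACS2 2.1.1 were used, on mm10. Annotation, strand setting and thresholds are not given in the sources used here. Per the labels' protocols, fetal libraries used a non-stranded and uterine libraries a stranded TruSeq kit, so the deposited tables were fitted separately.

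Tests used edgeR 4.0.16 under R 4.3.3 on the counts (glmQLFit and glmQLFTest, the quasi-likelihood test, with filterByExpr on the group, TMM and robust estimation), with Benjamini-Hochberg adjustment over all genes at 0.05. Fetal contrasts came from 1 model of 4 group means. The standard error is the absolute log2 fold change over the root of F. CPM uses the TMM-scaled total. Levels per length use GENCODE M21 exons (GRCm38), and promoters come from RefSeq. The script was tested on simulated data: 70.7% of changes of 1 and 96.9% of changes of 2 on the log2 scale were recovered between sexes at E16.5 (17579 genes), and 79.6% and 96.0% in the uterus (16007 genes).

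The members and lists were chosen with earlier results of these data known. All members are named. Of each other list up to 2 genes per direction and contrast are named, those with the largest change among genes called that average 10 CPM or more in their higher group, with neighbouring and family genes besides. For Aspn, Dcn, Lum and Bgn the 3 most alike genes are named. Alternatives were RLE scaling, library size alone, no low-count filter, DESeq2 1.42.0, only the 6 libraries compared, a replicate block, and leaving out each library. Same-numbered libraries of the sexes at E16.5 deviated together (correlations 0.284, 0.115 and 0.396, all over the limit of 0.1), so their numbers were taken as pairs there, from the data rather than from a label. E16.5 female replicate 2 and male replicate 1, which differ in number, also passed that limit (0.108), so the pairing is uncertain.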

Additional observations from a re-analysis of the deposited data

Results flagged for a closer look

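For 2 genes the difference between sexes was not the same at the 2 ages by the interaction test of edgeR. The male age change, from the contrast that drew in the family through Aspn, is a part of that interaction. The log2 difference of females against males in Kera was 1.52 ± 0.24 (SE) higher at E16.5 than at E14.5 (adjusted p = 0.000773), since Kera was lower in females at E14.5 (-1.01) and higher at E16.5 (0.51). Every E14.5 female library was below every E14.5 male library, whereas the E16.5 libraries overlapped. In Epyc the interaction was -2.42 ± 0.29 (adjusted p = 5.99e-05), with log2 differences of -0.45 at E14.5 and -2.87 at E16.5. Females were below males in all libraries at both ages. Over the 17 alternatives run, the largest adjusted p was 0.00351 for Kera and 0.000344 for Epyc.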

How the results depend on the processing

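Of 790 tested values of single members under alternative settings, 720 kept their direction and side of the threshold, 30 lost a call, 16 gained one and 24 turned sign. Of 197 values given without a test (the male age values and the Aspn interaction), 196 moved by less than the replicate spread and 1 by more, none turning sign. The members called ranged, over leaving out each library, from 3 to 4 for the E14.5 sex comparison, 5 to 7 for that of E16.5, 7 to 9 with age in females, 2 to 3 in the interaction and 6 to 8 in the uterus. The replicate block raised the interaction count to 4 and, in the uterus, where same-numbered libraries did not count as pairs (correlations 0.0018, 0.221 and 0.243), added Prelp; it changed no other call of a member. Over all genes, leaving out 1 library gave 553 to 1678 calls between sexes at E14.5, 1335 to 2687 in the interaction and 1949 to 3521 in the uterus, a range of over 1.5 times against the full fits of 1121, 1790 and 3866. Shifts of over 1.5 times came without any E14.5 library except male replicate 1, without E16.5 male replicate 1 (2687, interaction) and without Amhr2+ replicate 1 (1949) or Gli1+ replicate 1 (2521). Signs turned in members with small differences. Between sexes at E14.5 Lum was 0.00034 with RLE scaling, 0.00034 in DESeq2 and 0.0024 with the replicate block, and -0.13 to 0.081 over left-out libraries. Over left-out libraries Bgn at E16.5 ranged from -0.13 to 0.016, Omd with age in females from -0.16 to 0.39 and Omd in the uterus from -0.46 to 0.12. In the interaction Fmod was 0.0070 with library size alone and 0.0031 with the replicate block, and left-out libraries gave -0.13 to 0.20 for Fmod, -0.085 to 0.15 for Prelp and -0.0061 to 0.094 for Dcn. Prelp was -0.0041 there in DESeq2. The cause was not tested. A peak at the start site itself, in place of within 1 kb, was found in 4 members (81.3% of tested genes). Depth limits Omd, at 3 to 51 counts, and uterine Epyc.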
